A study of Mus musculus with 4 samples.

Results

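This account covers 41 genes of the interferon response and of antigen presentation to T cells, chosen by symbol from 56748 genes in the deposited table of liver expression. All 41 symbols were found once each. Livers of 4 NSG mice were sequenced. The 2 controls were untreated, and the other 2 received JIB-04, which inhibits Jumonji demethylases of histones, in 5 oral doses of 55 mg/kg, 2 per week. NSG mice of both groups carry the scid allele of Prkdc and a null allele of Il2rg on the NOD background and so lack mature T, B and natural killer cells, although the labels enter the genotype as WT. No vehicle was given to the controls, so the dosing itself and JIB-04 cannot be told apart. The labels give neither age nor sex, nor whether the animals bore tumours. Each library is the liver of 1 mouse. The comparison sets these transcripts after repeated JIB-04 dosing against those of untreated liver.

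Type I interferons bind IFNAR1 and IFNAR2 and act through the ISGF3 complex, which holds STAT2 and IRF9 and binds the interferon-stimulated response element (ISRE) in promoters. Interferon gamma acts through the GAS element and induces IRF1, the immunity-related GTPases and the machinery that loads peptides on MHC class I. In liver, hepatocytes, Kupffer cells and endothelium all respond to type I interferon, and a low tonic signal keeps many of these genes measurable without infection.

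The elements on which these factors act were looked for in RefSeq promoters of build GRCm38.p6, each running from 250 bases before to 50 after a gene's start. The table held 35 promoters of 31 of the 41 genes. For 25 of the 35, the first 20 bases after the start lay in the first 300 bases of a GENCODE vM21 transcript of the gene. The start of the rest was not matched in this way. Positions given below count from the RefSeq start, whether or not it was matched. The ISRE core, GAAA followed by any 2 bases and a further GAAA, or TTTC, any 2 bases and TTTC on the other strand, was in 18 of these 35 promoters (51.4%), from 18 genes, and in 1131 of all 32851 promoters (3.44%). The GAS core TTCNNNGAA, which reads the same on both strands, was in 6 of the 35 (17.1%) and in 8.30% of all promoters. The windows below lie wholly before the start and are printed 5′ to 3′ on the gene's strand, with ISRE core matches in capitals. The first 5 belong to those genes that held a match among the 6 members with an unadjusted p under 0.05, described further on, the Oas1a and Oas1g windows belong to a pair of genes with much shared sequence, and B2m is the light chain of every MHC class I molecule.
Isg15: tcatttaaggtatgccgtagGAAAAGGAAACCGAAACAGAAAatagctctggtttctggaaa
Cxcl10: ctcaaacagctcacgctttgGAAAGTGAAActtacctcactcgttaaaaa
Irgm1: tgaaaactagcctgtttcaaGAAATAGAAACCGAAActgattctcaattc
Ifit1: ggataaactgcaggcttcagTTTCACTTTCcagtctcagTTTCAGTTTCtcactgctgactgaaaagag
Bst2: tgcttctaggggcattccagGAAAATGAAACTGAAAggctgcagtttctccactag
Oas1a: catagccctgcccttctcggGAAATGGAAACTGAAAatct
Oas1g: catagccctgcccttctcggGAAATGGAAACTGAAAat
B2m: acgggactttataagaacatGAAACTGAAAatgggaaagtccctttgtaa

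In GRCm38.p6 these windows are chr4:156200855-156200916 (minus strand) for Isg15, chr5:92349073-92349122 (minus) for Cxcl10, chr11:48871421-48871470 (minus) for Irgm1, chr19:34640765-34640833 (plus) for Ifit1 and chr8:71537567-71537622 (minus) for Bst2. Those of Oas1a, Oas1g and B2m are chr5:120907526-120907565 (minus), chr5:120887614-120887651 (minus) and chr2:122147528-122147577 (plus). Counting the base before the start as -1, the Isg15 window holds 3 overlapping matches from -78 to -57, and the Irgm1 matches run from -30 to -15. Irf7, with the third lowest p of the members, had no match in its window. A match is a run of letters and does not show that a factor bound there. The bases are those of the reference build and were not compared with NOD sequence.

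From 36469514 to 43283827 reads were recovered per library from the FPKM values (fragments per kilobase of gene, scaled to the reads of the library). Genes with a mean of at least 1 FPKM over the 4 libraries were tested (10819 genes) with limma on log2(FPKM + 1), and a gene was called at a Benjamini-Hochberg adjusted p under 0.05. This called 2.14% of all genes tested, 1.53% as higher and 0.619% as lower in JIB-04 liver. All log2 changes below are JIB-04 minus untreated on the scale of log2(FPKM + 1), where differences of low genes come out too small. T cell and natural killer cell markers summed to under 1 FPKM in each library, and Cd3e, Trac, Ms4a1, Ncr1 and Prf1 had 0 reads in all 4. The B cell marker Ighm, an immunoglobulin heavy chain, was the exception among lymphocyte markers, at 3.74, 13.7, 11.6 and 24.3 FPKM in untreated 1, untreated 2, JIB-04 1 and JIB-04 2. The hepatocyte gene Alb, for albumin, was at 22910 FPKM or more.

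No interferon or antigen presentation gene was called in either direction. Of the 41 members 40 passed the filter, and 0 were higher, 0 lower and 40 not past the test (limma, lowest adjusted p = 0.101, for Isg15). The unadjusted p was under 0.05 for 6 members of 40, against 15.5% of all genes tested. Voom on the recovered reads also called 0 members, and 400 of all 10819 genes tested. The groups did not overlap for 16 of the 40 members, against 46.4% of all genes tested. In 12 of them JIB-04 was the higher group (30.0%, against 24.6% of all genes) and in 4 the lower (against 21.8% of all genes). The median log2 change was 0.06, beside 0.01 over all genes tested. Above 0 were 26 members (65.0%, against 51.4% of all genes tested), and below 0 were 14. FPKM is relative to the whole library, and Alb took 46658 and 46858 FPKM in the controls and 31689 and 22910 after JIB-04 (limma adjusted p = 0.144). The other hepatocyte markers lay closer between groups, with ratios of means from 0.851 to 1.21, the highest for Fgb. With values rescaled to exclude the 50 most abundant genes and those of mitochondrial DNA, the members' median was 0.02 and that of all genes tested -0.04.

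**Figure D1:**
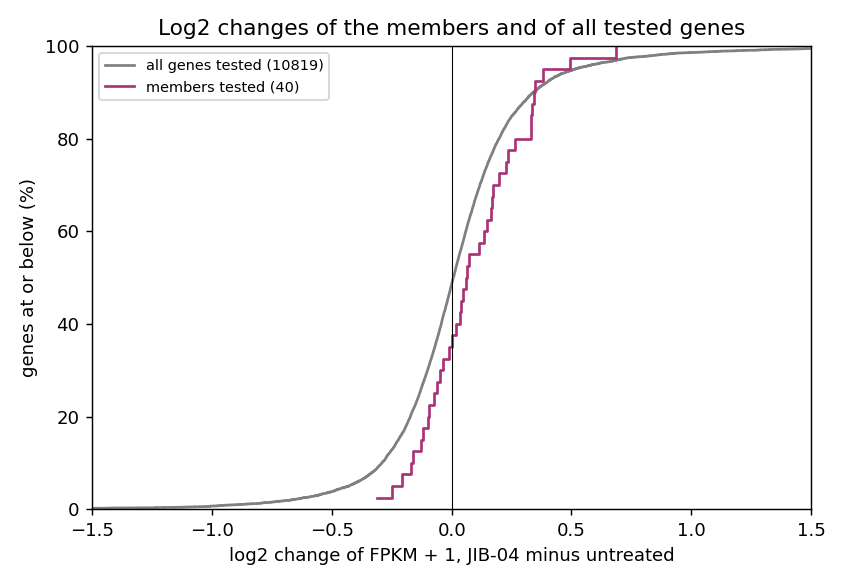
Cumulative share of genes (vertical axis, %) by log2 change of FPKM + 1, JIB-04 minus untreated (horizontal axis, drawn from -1.5 to 1.5), for the 40 tested members and all 10819 tested genes. The members' curve lies to the right of the other over most of its length and spans -0.31 to 0.69.

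The intervals set a limit on these differences. The 95% interval of the log2 change, whose median half-width was 0.34, stayed within 1 log2 unit in both directions for 39 of the 40 members. Cxcl10 was the exception. On the log2(FPKM + 1) scale this bound is close to 2-fold for abundant genes only, and low genes can differ 2-fold in FPKM within it. Over all genes tested 91.2% met the same bound. With voom, which adds no pseudocount of 1 FPKM, 35 of the 40 intervals (87.5%) left out 2-fold, against 81.9% of all genes. The 5 members that did not were Cxcl10, Cxcl9, Rsad2, Oas1g and Ifit3b, all with fewer than 3 FPKM in each library.

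**Figure D2:**
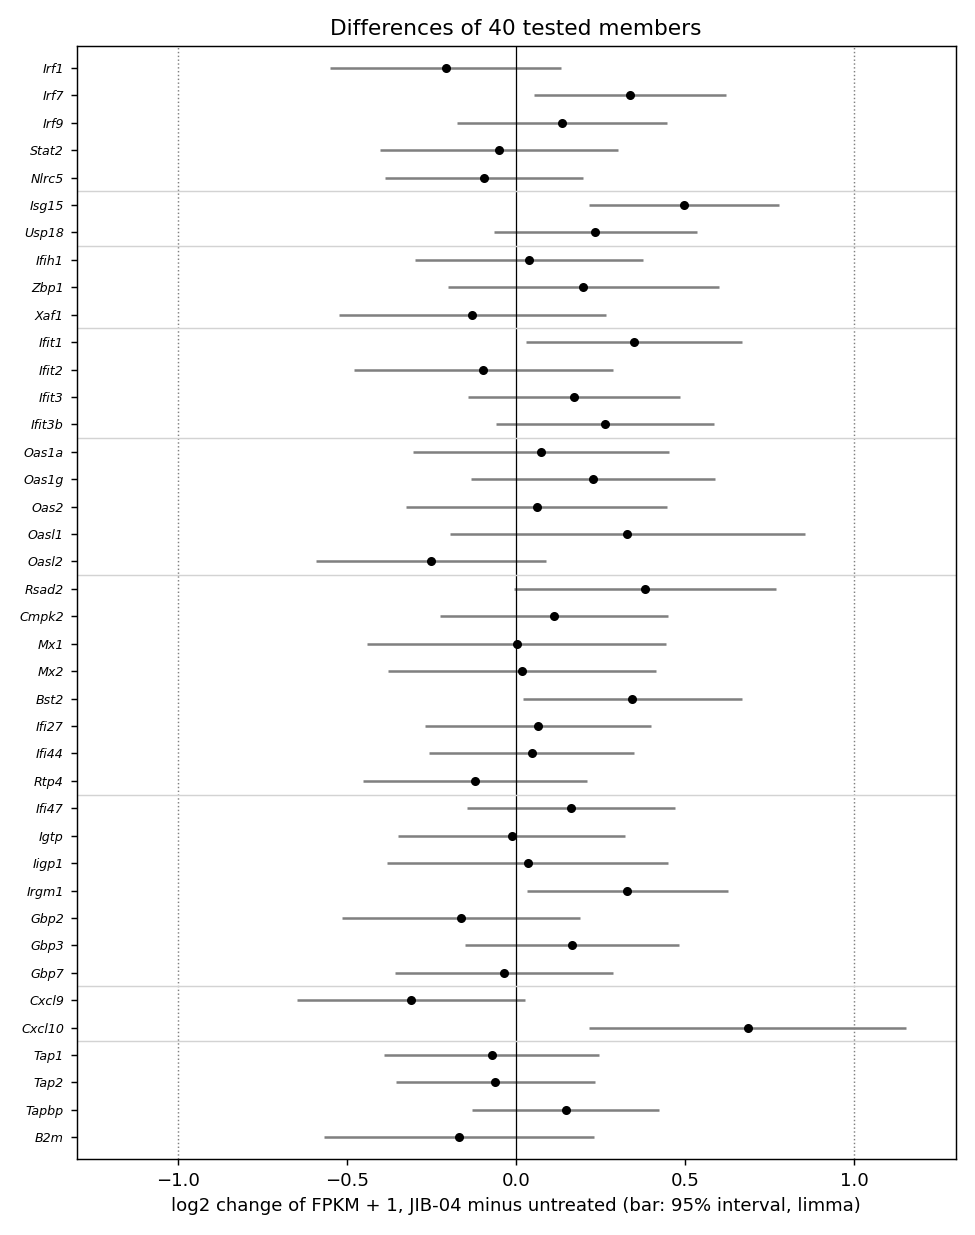
Log2 change of FPKM + 1 (horizontal axis, JIB-04 minus untreated) of each of the 40 tested members, ordered by role. Bars are 95% intervals from limma, and dotted lines mark 1 log2 unit in either direction, which for low genes is more than 2-fold in FPKM. The bar of Cxcl10, from 0.22 to 1.15, is the one that crosses a dotted line.

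Transcription factors of the pathway split in sign. Irf7 (ENSMUSG00000025498, chromosome 7, 140842619 to 140846394, GRCm39), which amplifies type I interferon production, stood at 25.8 and 25.3 FPKM in untreated 1 and 2 and at 31.1 and 34.1 in JIB-04 1 and 2. Both JIB-04 values lay above both untreated values, a 1.27-fold difference of means that was not called (log2 change 0.34, 95% interval 0.05 to 0.62, limma adjusted p = 0.238). Irf1, the transcription factor induced by interferon gamma, measured 8.36 and 6.48 in the controls and 6.24 and 6.25 after JIB-04 (adjusted p = 0.572). Its groups did not overlap, with untreated 1 apart from the other 3 libraries. Stat2 and Irf9 overlapped between groups. Stat2 ranged from 11.1 to 14.0 over the 4 libraries (log2 change -0.05, interval -0.40 to 0.30) and Irf9 from 7.505 to 9.49 (0.14, interval -0.17 to 0.45). Nlrc5, the activator of MHC class I genes, measured 3.68 and 3.71 in the controls and 3.21 and 3.58 after JIB-04 (-0.10, interval -0.39 to 0.20), lower in both treated animals by less than 0.5 FPKM.

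Isg15 had the lowest p of all members. It encodes a ubiquitin-like protein that is attached to other proteins after interferon exposure (ENSMUSG00000035692, chromosome 4, 156283912 to 156285253). It was at 20.1 and 19.2 FPKM in untreated 1 and 2 and at 27.1 and 29.2 in JIB-04 1 and 2, from 509 to 816 reads per library. The groups were well apart relative to their spread, with means of 19.6 ± 0.683 and 28.1 ± 1.48 (SD, n = 2), a 1.43-fold difference. The log2 change was 0.50 (SE 0.12, interval 0.21 to 0.78; limma adjusted p = 0.101, from 0.0711 to 0.350 over 14 alternatives, none of which called it). Usp18, the protease that removes ISG15 and dampens IFNAR2 signalling, was at 4.94 and 4.48 against 5.37 and 6.07. It too was higher in both treated animals, 1.22-fold in the means (adjusted p = 0.451).

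The Ifit genes encode RNA-binding proteins that block translation of foreign RNA, and lie within 99.3 kb of chromosome 19 (34528094 to 34627409). Ifit1 measured 6.81 and 7.57 FPKM in the controls and 8.62 and 10.3 after JIB-04 (1.32-fold, log2 change 0.35, interval 0.03 to 0.67, limma adjusted p = 0.280). Ifit3 was at 13.5 and 13.8 against 14.1 and 17.0, and Ifit3b at 1.73 and 1.95 against 2.60 and 2.22. For these 3 genes each treated value exceeded each untreated one, although JIB-04 1 was within 0.5 FPKM of untreated 2 for Ifit3. Ifit2 did not share this, at 2.86 and 2.26 against 2.00 and 2.67 (log2 change -0.10, interval -0.48 to 0.29). Of the Ifit3 transcript, 51.2% of 50-base stretches also occur in Ifit3b (GENCODE vM21 transcripts), so the split of reads between the 2 is uncertain. The ratio of Ifit3 to Ifit3b FPKM was 7.78, 7.11, 5.43 and 7.66 in untreated 1, untreated 2, JIB-04 1 and JIB-04 2.

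The oligoadenylate synthetases make the second messenger that activates RNase L, and 4 of the 6 lie within 177 kb of chromosome 5. Oas1a measured 5.18 and 4.97 FPKM in the controls and 4.55 and 6.36 after JIB-04, with the treated animals on either side of the controls. Oas2 showed the same arrangement at 1.92, 1.98, 1.70 and 2.51, in the order untreated 1, untreated 2, JIB-04 1, JIB-04 2. Oas1g, which shares 54.1% of 50-base stretches with Oas1a and the promoter bases printed above, was at 1.42 and 1.49 against 2.19 and 1.59, so its division from Oas1a is uncertain. Oasl1, an inhibitor of Irf7 translation, was at 3.86 and 6.28 against 5.87 and 7.13 (log2 change 0.33, interval -0.20 to 0.85), with untreated 1 the lowest library. Oasl2 went the other way, at 1.87 and 1.54 against 1.17 and 1.38 (-0.25, interval -0.59 to 0.09). Oas3, at 0.675 and 0.775 against 0.548 and 0.539, was under the filter and was not called without it (limma adjusted p = 0.727).

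Among the remaining antiviral effectors Bst2 was the most abundant. It encodes tetherin, which holds budding virions at the cell surface (ENSMUSG00000046718, chromosome 8, 71986899 to 71990100). It measured 159 and 185 FPKM in the controls and 215 and 221 after JIB-04, with 97.9% of tested genes at or below its mean. Its means differed 1.27-fold (log2 change 0.34, interval 0.02 to 0.67, limma adjusted p = 0.293), and no library crossed between the groups. Ifi27, a mitochondrial interferon-induced protein gene, was at 77.2 and 94.6 against 88.2 and 90.8, with both treated values between the untreated ones (log2 change 0.07, interval -0.27 to 0.40). Rsad2 encodes viperin, which makes a chain-terminating nucleotide, and lies beside Cmpk2, the kinase that supplies its substrate, within 37.1 kb of chromosome 12. Rsad2 was at 2.37 and 1.58 against 2.76 and 2.91 (1.44-fold, adjusted p = 0.330), higher in both treated animals, whereas Cmpk2 overlapped at 1.68 and 1.45 against 1.59 and 1.96. The dynamin-like GTPases Mx1 and Mx2 differed little between groups. Mx1 was at 1.16 and 1.09 against 0.810 and 1.503, and Mx2 at 3.50 and 2.98 against 2.74 and 3.89, so for both genes JIB-04 1 was the lowest and JIB-04 2 the highest library. Ifi44 ranged from 2.62 to 3.01 and Rtp4, a chaperone of receptor trafficking, from 7.62 to 9.69, both with overlapping groups.

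**Figure D3:**
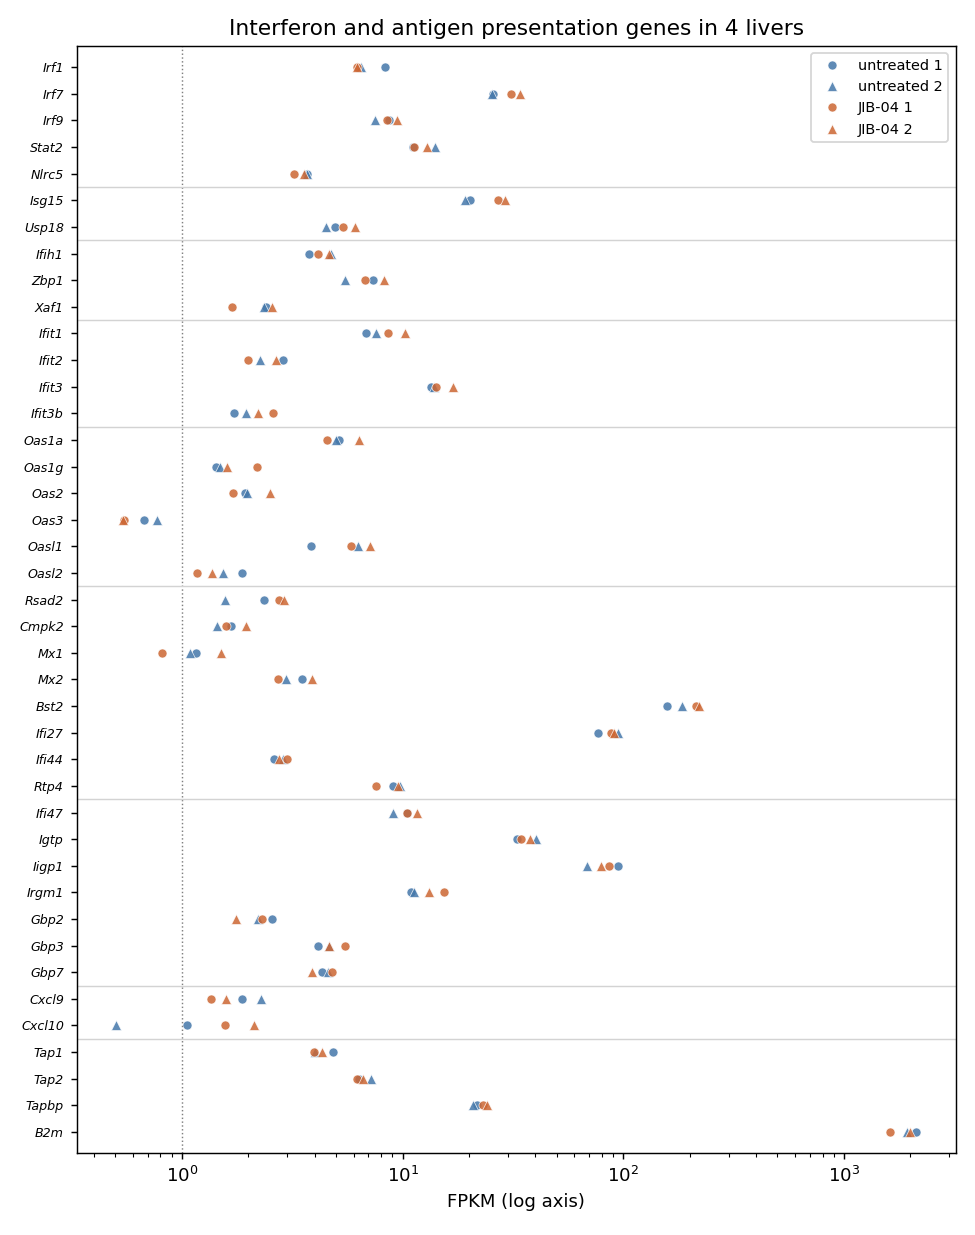
FPKM on a log axis (horizontal) of each of the 41 members in the 4 libraries, ordered by role with grey lines between roles; blue marks untreated and orange JIB-04, circles replicate 1 and triangles replicate 2. The dotted line is 1 FPKM, the filter, and Oas3 lies left of it in all 4 libraries.

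The sensors and cell death genes overlapped between groups in all 3 cases. Ifih1, which encodes the double-stranded RNA sensor MDA5, measured 3.78 and 4.74 FPKM in the controls and 4.13 and 4.63 after JIB-04 (log2 change 0.04, interval -0.30 to 0.37). Zbp1, a sensor of Z-form nucleic acids that starts necroptosis, was at 7.38 and 5.47 against 6.73 and 8.24 (0.20, interval -0.20 to 0.60). Xaf1, an antagonist of the inhibitor of apoptosis XIAP, was at 2.40 and 2.37 against 1.69 and 2.56 (-0.13, interval -0.52 to 0.27), with JIB-04 1 below the other 3.

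The immunity-related and guanylate-binding GTPases act on the vacuoles of intracellular pathogens and answer mainly to interferon gamma. Irgm1, a regulator of the family (ENSMUSG00000046879, chromosome 11, 48752795 to 48762510), measured 11.0 and 11.2 FPKM in the controls and 15.3 and 13.2 after JIB-04. Its groups did not overlap, and the 1.28-fold difference was not called (log2 change 0.33, interval 0.03 to 0.63, limma adjusted p = 0.274). The effector GTPase Iigp1 was far more abundant, at 94.9 and 68.8 against 86.5 and 79.2, with both treated values inside the untreated range (0.03, interval -0.38 to 0.45). Igtp was at 33.1 and 40.2 against 34.5 and 37.8, again inside the untreated range (-0.01, interval -0.35 to 0.32). Ifi47 was at 10.5 and 9.06 against 10.5 and 11.6. Gbp2, Gbp3 and Gbp7, within 108 kb of chromosome 3, had log2 changes of -0.16, 0.17 and -0.04. All 3 had overlapping groups, with Gbp2 between 1.76 and 2.56 FPKM and Gbp3 and Gbp7 between 3.90 and 5.47.

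The 2 chemokines, ligands of the lymphocyte receptor CXCR3, differed in opposite directions. Cxcl10 (ENSMUSG00000034855, chromosome 5, 92494497 to 92496748) was at 1.05 and 0.505 FPKM in untreated 1 and 2 and at 1.56 and 2.12 in JIB-04 1 and 2, from 87, 43, 151 and 175 reads. Both treated values were above both controls, with means of 0.779 ± 0.388 and 1.84 ± 0.390 (SD, n = 2). The 2.36-fold difference was the largest of the 40 tested members, but the gene was not called (log2 change 0.69, SE 0.20, limma adjusted p = 0.154, from 0.126 to 0.464 over 13 alternatives). The Cxcl10 log2 change was 0.91 without untreated 1 and 0.46 without untreated 2. On recovered reads with voom its log2 change was 1.28 (interval 0.34 to 2.22). Cxcl9, its neighbour within 27.5 kb and the more gamma-dependent of the pair, was at 1.87 and 2.27 against 1.36 and 1.59, a ratio of means of 0.712 (log2 change -0.31, interval -0.65 to 0.03, adjusted p = 0.368). No treated value of Cxcl9 reached the lower control. Neither chemokine was called, and the difference between their 2 log2 changes was not tested.

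No antigen presentation gene was called. B2m, the MHC class I light chain, measured 2112 and 1942 FPKM in the controls and 1625 and 1997 after JIB-04, and made up 70.9% to 78.2% of the summed FPKM of all 41 genes. Its groups overlapped, with JIB-04 1 the lowest library (log2 change -0.17, interval -0.57 to 0.23). Tap1 and Tap2 form the transporter that carries peptides into the endoplasmic reticulum. Tap1 was at 4.83 and 3.998 against 3.95 and 4.32, and Tap2 at 6.32 and 7.21 against 6.25 and 6.62, both overlapping (log2 changes of -0.07 and -0.06). Tapbp, the tapasin that holds the transporter to MHC class I, was at 21.8 and 20.8 against 23.1 and 24.2, higher in both treated animals by 1.11-fold (interval -0.13 to 0.42 on the log2 scale, limma adjusted p = 0.630).

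The strand setting of the counting is not given, and 6 members overlap another gene of at least 1 FPKM in the deposited coordinates, namely Irf7, Irf9, Rtp4, Igtp, Tap1 and Tapbp. The overlapping partner with the highest level was Masp1, at 27.2 FPKM on the strand opposite Rtp4. Values of these 6 may hold reads of their partners.

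The animals differed among themselves as well. JIB-04 2 exceeded JIB-04 1 for 32 of the 40 tested members, against 49.3% of all genes tested, while untreated 2 exceeded untreated 1 for 19 of the 40. JIB-04 2 was the highest of the 4 libraries for 19 members, JIB-04 1 for 6, untreated 1 for 7 and untreated 2 for 8. This count was not made over all genes tested. The median deviation of the members from their own mean was 0.09 in JIB-04 2, beside -0.02 in JIB-04 1, -0.03 in untreated 1 and -0.06 in untreated 2, on the log2(FPKM + 1) scale. Leaving out JIB-04 1 gave a members' median log2 change of 0.14, and leaving out JIB-04 2 one of 0.05. All 11 Kupffer cell and macrophage markers were also higher in JIB-04 2 than in JIB-04 1, with summed levels of 510, 439, 380 and 475 FPKM in untreated 1, untreated 2, JIB-04 1 and JIB-04 2. Between the groups all 11 had log2 changes below 0 (median -0.17, 0 called), against 5260 of all 10819 genes tested. Of 6 tested hepatocyte markers 5 were below 0 too, also with a median of -0.17. The 6 tested stellate cell markers were also below 0, 4 of them without overlap, against 21.8% of all genes tested that were lower without overlap. Voom, which called 400 of all 10819 genes tested, called Lrat (0.584-fold, voom adjusted p = 0.0194 and limma adjusted p = 0.0549). Of 7 liver endothelium markers 3 were above 0 and 4 below, and 3 were lower without overlap. The 5 red cell transcripts summed to 2952, 1845, 654 and 1782 FPKM, in the same order. Of 3 tested neutrophil markers, S100a8 was at 6.68, 2.40, 36.3 and 63.0 (limma adjusted p = 0.131, voom 0.00557), whereas its partner S100a9 was at 18.7, 4.01, 7.51 and 8.45 and Csf3r at 2.60, 1.17, 1.51 and 1.38, both overlapping. The part of these cells in the members' values was not tested. In whole liver, fewer cells of a type and less RNA per cell cannot be told apart.

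**Figure D4:**
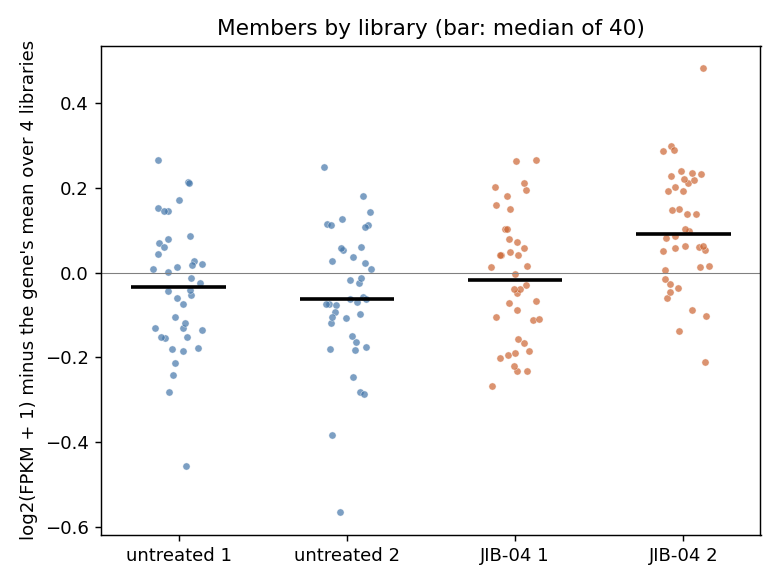
Log2(FPKM + 1) of each of the 40 tested members minus its mean over the 4 libraries (vertical axis), by library, with a black bar at the median. The JIB-04 2 median, 0.09, lies above the other 3, which run from -0.06 to -0.02.

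Related genes outside the 41 were likewise not called by limma. From 7 lists of related genes, 132 symbols outside the 41 were found and 94 passed the filter, with 0 called higher, 0 called lower and a median log2 change of 0.02. The unadjusted p was under 0.05 for 14 of the 94 (14.9%, against 15.5% of all genes tested). Voom called 3 of the 94 (Irf5, Ifnar2 and Pdia3), and 400 of all 10819 genes tested. Of 10 interferon genes 8 had 0 reads in every library, Ifng among them, and none passed the filter. Ifnb1, interferon beta, chosen after its values were seen, had 0 reads in both untreated libraries and 6 and 8 in JIB-04 1 and 2, and was not called without the filter (limma adjusted p = 0.449).

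Among 16 tested receptor and signalling genes Irf5 and Ifnar2 had the lowest p. Irf5, a transcription factor of myeloid cells, measured 4.86 and 3.71 FPKM in the controls and 2.03 and 2.12 after JIB-04 (log2 change -0.77, interval -1.13 to -0.42). Both treated values were below the controls, and its limma adjusted p was 0.0563 (0.0366 to 0.305 over 13 alternatives, with calls under the rescaling given above, by voom and with the replicate number as a block). Ifnar2, a subunit of the type I interferon receptor, was at 8.95 and 5.81 against 13.9 and 12.6 (0.79, interval 0.32 to 1.26, adjusted p = 0.115, and 0.0369 to 0.417 over 14 alternatives, with calls by voom, with the block and without untreated 1, where the Ifnar2 log2 change was 1.06 and the adjusted p 0.0379). Socs3, a feedback inhibitor of cytokine receptors, chosen after its values were seen, was at 12.5 and 6.95 against 4.44 and 4.36 (log2 change -0.94, interval -1.60 to -0.29, adjusted p = 0.173, and 0.0197 to 0.450 over 14 alternatives). It was called without untreated 2 only, at the lowest of these values. Jak1, a kinase bound to both interferon receptors, ranged from 16.5 to 19.7 and Irf3, which starts interferon beta transcription, from 12.8 to 13.9, both overlapping.

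Nucleic acid sensing genes had a median log2 change of 0.16 over 13 tested. Dhx58, the RNA helicase LGP2, measured 3.21 and 3.25 FPKM in the controls and 4.38 and 4.60 after JIB-04 (limma adjusted p = 0.189). Ikbke, a kinase that activates IRF3 and IRF7, was at 1.97 and 2.74 against 3.34 and 3.68 (adjusted p = 0.238). Neither pair of groups overlapped, while the adaptor Mavs, the most abundant of the list, ranged from 26.3 to 30.1 with overlap. Trim25, which ubiquitinates RIG-I, was at 15.2 and 15.3 against 18.9 and 15.6.

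In 40 other tested interferon-stimulated genes 19 log2 changes were above 0. Lgals3bp, a secreted glycoprotein, measured 25.7 and 22.1 FPKM in the controls and 33.2 and 34.4 after JIB-04 (limma adjusted p = 0.126), and Samd9l, an antiviral factor, went the other way at 3.54 and 4.38 against 2.74 and 2.85 (adjusted p = 0.247). The abundant Ifitm3, which blocks viral entry, was at 524 and 515 against 520 and 570 (log2 change 0.07, interval -0.25 to 0.39). Lgals9, a galectin, was at 176 and 211 against 205 and 266, with overlap.

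Among immunoproteasome and peptide supply genes the 2 of lowest p were chaperones of the endoplasmic reticulum, which also fold other secreted proteins. Pdia3 measured 93.9 and 112 FPKM in the controls and 162 and 163 after JIB-04 (log2 change 0.66, interval 0.33 to 0.98, limma adjusted p = 0.0695, and 0.0436 to 0.315 over 14 alternatives, with calls by voom and with a filter of 5 FPKM). Calr was at 148 and 190 against 221 and 256 (adjusted p = 0.209). Of the 10 tested genes of this list 9 had log2 changes above 0, against 51.4% of all genes tested. The list's median was 0.12, with 0 called by limma. The 1 gene below 0 was the immunoproteasome subunit Psmb8, at 11.1 and 11.5 against 7.84 and 9.60 (-0.35, interval -0.67 to -0.03, limma adjusted p = 0.282). The subunits Psmb9 and Psmb10 overlapped between groups. These 3 subunits were chosen after their values were seen. Among MHC class I genes Cd1d1, which presents lipids, was at 96.8 and 102 against 135 and 155 (adjusted p = 0.108), and H2-Q4 at 22.3 and 25.7 against 18.9 and 18.5 (adjusted p = 0.257). These 2 differed in opposite directions without overlap. The classical heavy chain H2-D1 was at 316 and 294 against 268 and 288 (log2 change -0.13, interval -0.44 to 0.18), and the liver-expressed H2-Q10 at 283 and 320 against 295 and 335. MHC class II genes of antigen-presenting cells had a median log2 change of -0.02 over 5 tested. H2-Ab1 was at 3.96 and 3.46 against 2.82 and 3.21, Cd74, the invariant chain, at 21.6 and 18.3 against 16.1 and 19.1, and the protease Ctss, which trims it, between 25.3 and 32.8.

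**Figure D5:**
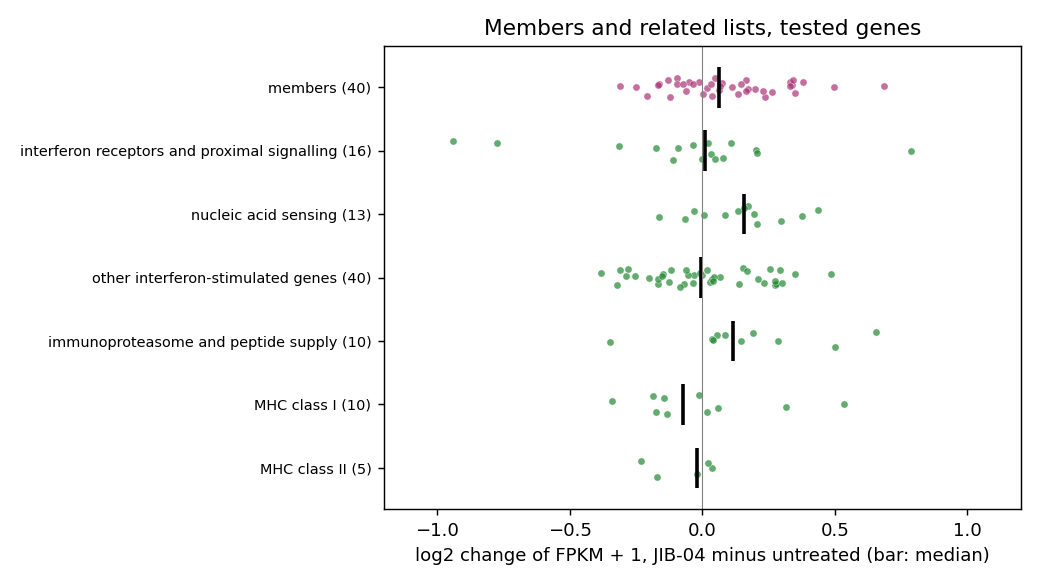
Log2 change of FPKM + 1 (horizontal axis, JIB-04 minus untreated) of the tested genes of the 41 members and of 6 related lists, 1 point per gene and a black bar at each median; the number tested is in brackets. Medians lie between -0.07 for MHC class I and 0.16 for nucleic acid sensing.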

How the data were processed

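Expression was deposited as FPKM by the authors, in a single table with a column for each library beside gene lengths and coordinates. The submitters' processing notes name build GRCm39 (mm39), and Trizol served for extraction, per the labels' protocols. Aligner, counter, annotation release and strand handling were each not given in the sources used here. Reads were recovered from FPKM times gene length, which fell on whole multiples of a step in each library for 100% of values (tolerance 0.01). Genes averaging at least 1 FPKM were fitted as log2(FPKM + 1) with limma 3.58.1 in R 4.3.3 (trend and robust moderation, two-sided), adjusted over all 10819 genes, after a check on simulated data. For a single gene, exact permutation of 2 against 2 libraries has a smallest two-sided p of 0.333. A fold is the ratio of group means of FPKM. Every member was described. From each related list with tested genes, the genes past the test, the 2 of lowest p and the 2 of highest mean were named. Members and lists were chosen with earlier results of these data known. Of 136 symbols on the related lists 132 were matched. Alternatives covered the pseudocount, filter, scaling, moderation, voom on recovered reads, a replicate block and each library left out. No interval covers more than the spread between these 4 animals.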

Additional observations from a re-analysis of the deposited data

How the results depend on the processing

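No member was called under any of the 14 alternatives, in either direction, and the lowest adjusted p over them was 0.0711, for Isg15 with a mean FPKM of at least 5. The median log2 change of the members was 0.06, and was 0.15 with a mean FPKM of at least 5, which left 21 members. Leaving out 1 library gave medians from 0.0458 to 0.141, the highest without JIB-04 replicate 1. With the lone library of a group assumed to vary like the other group, 2 to 4 members had an unadjusted p under 0.05. The other alternatives gave medians from 0.02, with the TPM rescaling that leaves out the 50 highest genes and mitochondrial DNA, to 0.07. Of 541 member values under alternatives, 35 had the opposite sign to the value reported, none of them called.

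The replicate numbers in the titles were not shown to pair the animals (r = -0.05 between the deviations of same-numbered libraries across 10819 genes, which are not independent replicates). With the replicate block 0 members were called, with a median of 0.06, and genes called over the whole table were 236 higher and 121 lower, against 165 and 67 without it. With 2 animals a group, a member at the median interval width would need a log2 change of over 0.34 for its unadjusted 95% interval to leave out 0. Over the whole table, 28 genes were called higher and 2 lower without JIB-04 1, 22 and 1 without JIB-04 2, and 20 and 0 without the filter. Oas3 was tested without the filter only.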
